A study of Mus musculus with 18 samples.

Results

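The genes described here code for 38 subunits of chromatin complexes: 11 of the histone H3 lysine 4 (H3K4) methyltransferase complexes, 5 of cohesin with its partner Ctcf, 6 of Polycomb repressive complex 2 (PRC2), 11 of SWI/SNF, 2 of the INO80 and EP400 remodelers, and 3 of NuRD and the class I histone deacetylases. They were chosen by name, with the CHD family left out, and include the CHD8 partners Wdr5, Ash2l, Rbbp5 and Ctcf. All 38 were found among the 55414 gene identifiers listed and all 38 were among the 10948 genes tested after the filter on low counts. RNA had been taken from purified microglia, the resident macrophages of the brain, of mice labelled KO or WT for Chd8. The 18 libraries fall into 4 groups: female KO (n = 4), female WT (n = 4), male KO (n = 5) and male WT (n = 5). The study's design text names a comparison of these groups. The sources used here do not give the KO allele, whether 1 or both copies carry it, the cells it is deleted in, the strain or the age of the mice, nor the meaning of the prefix HX that every library name carries. Nothing says that the libraries of a group came from separate animals, so p-values measure only the spread between these libraries, which may be technical.

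CHD8 is a chromodomain helicase that uses ATP to move nucleosomes, and it has been found bound to WDR5, ASH2L and RBBP5 and to CTCF. WDR5, RBBP5, ASH2L and DPY30 form the core that all H3K4 methyltransferases of the KMT2 and SETD1 families share, and the mark they place lies at promoters and enhancers. PRC2 places the repressive mark on H3 lysine 27, SWI/SNF slides or evicts nucleosomes, cohesin and CTCF shape chromatin loops, and NuRD couples a nucleosome remodeler to histone deacetylases. In macrophages, to which microglia belong, such complexes act at the promoters and enhancers that lineage transcription factors bind.

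Libraries were made by a bulk form of MARS-seq, in which each RNA molecule is tagged near its polyadenylated 3' end with a unique molecular identifier (UMI), and held 435838 to 9149144 UMIs. Levels are UMI counts relative to library size (CPM), with the size scaled by the TMM method, which corrects for library composition. The 14 microglial markers summed to 41059 to 56218 CPM per library and none was at 0 in a whole group. Female KO replicate 33 stood apart: it was the shallowest library, its 4 Y-linked genes summed to 20.6 CPM against 0 to 2.08 CPM in the other 7 female libraries and 23.3 to 52.4 CPM in males, and its Xist was 22.9 CPM against 40.4 to 102.6 CPM in the other females. Calls that changed without it are given with and without it. Libraries also fell into 3 separate ranges of reads per UMI (1.788 to 1.892, 2.939 to 3.117 and 5.52 to 7.256). The highest range held 3 female WT libraries and female KO replicate 33 and no male library, so it is largely mixed with sex in WT. There only female WT replicate 39 shared a range, the middle one, with male libraries. In females the highest range held 3 of the 4 WT and 1 of the 4 KO libraries, so it is also partly mixed with genotype there. In bulk RNA, fewer cells of a type and less RNA per cell cannot be told apart.

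Chd8 itself, the labelled target, was 102, 97.4, 116, 96.4 and 109 CPM in male KO replicates 36, 6, 9, 17 and 40, and 167, 156, 159, 135 and 143 CPM in male WT replicates 13, 37, 10, 11 and 14. Female KO replicates 33, 16, 1 and 7 held 139, 116, 117 and 121 CPM, and female WT replicates 34, 39, 31 and 30 held 186, 132, 181 and 164 CPM. All male KO libraries lay below all male WT libraries, and the female groups overlapped at 1 WT library. For males the fitted log2 fold change came to -0.54 ± 0.10 (SE) (edgeR's quasi-likelihood test, Benjamini-Hochberg adjusted p = 0.00171). In females it was -0.44 ± 0.12 (adjusted p = 0.0547 in edgeR, and 0.0196 without female KO replicate 33). With the range of reads per UMI as a covariate the female value was -0.24 ± 0.13 (adjusted p = 0.41 in edgeR). The male value was then -0.55 ± 0.09 (adjusted p = 0.000378 in edgeR). Chd8 transcript was present in every KO library. A 3' tag outside a deleted stretch does not show whether the protein is made.

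Every one of the 38 genes had at least 2 UMIs in each library, 23 had 10 or more UMIs in every library, and group means ran from 6.29 to 183 CPM. Levels are not compared between genes, since transcript length and 3' tagging differ between them. The median coefficient of variation between libraries over the 38 genes was 30.8% in female KO, 20.8% in female WT, 12.8% in male KO and 12.5% in male WT. Without replicate 33 it was 12.3% in female KO, near that of male KO. Female KO replicate 33 held 12 genes more than 1 log2 unit from their mean over the groups, while the other 17 libraries held 0 to 2. In that library Rad21, the cleavable subunit of the cohesin ring, had 2 UMIs, and Ezh2, Rbbp5, Rbbp7, Smc3 and Suz12 had 3 each.

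**Figure D1:**
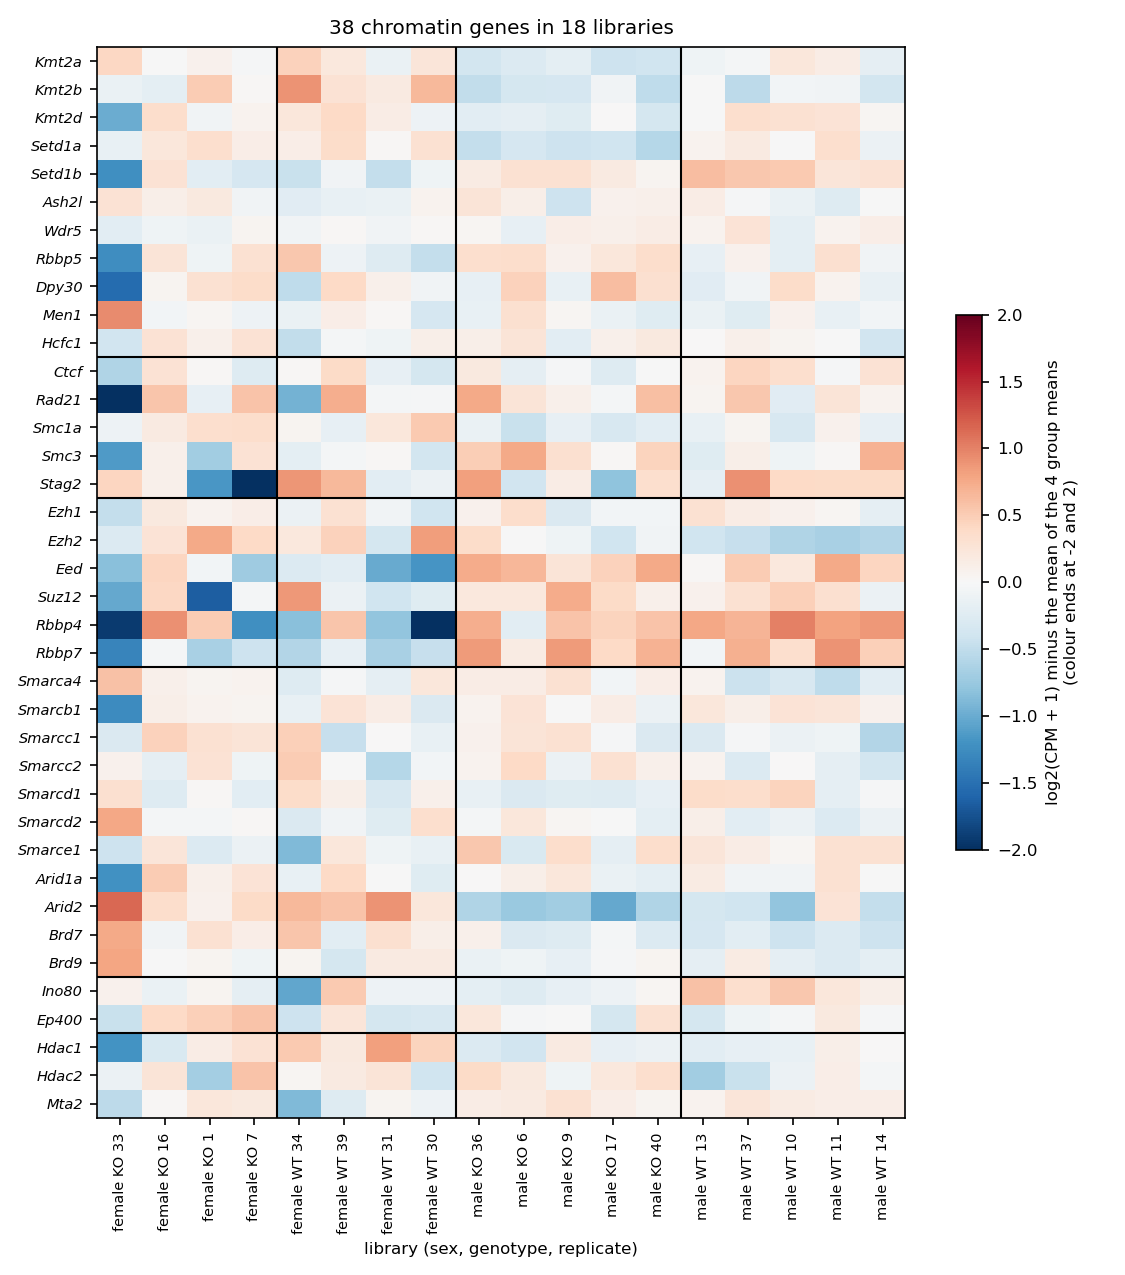
Each row is 1 of the 38 genes, ordered by complex, and each column 1 of the 18 libraries, with black lines between complexes and between groups. Colour is log2(CPM + 1) minus the mean of the 4 group means of that gene, from blue (lower) to red (higher), with the scale ending at -2 and 2. Female KO replicate 33 holds 12 genes beyond 1 log2 unit, and Rbbp4, Eed and Rbbp7 are mostly red in males and blue in females.

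Few of these genes passed the test for Chd8 KO. In males 1 of the 38 genes passed the edgeR test, Setd1a, which fell. Of all genes tested 6.24% passed, 3.37% higher and 2.87% lower in KO. At an unadjusted p under 0.05 were 10 of the 38 genes in males (26.3%), against 18.1% of all genes. In females none of the 38 passed, against 2.68% of all genes (0.849% higher and 1.83% lower), 4 were at an unadjusted p under 0.05 (10.5%, against 15.7% of all genes), and DESeq2 also called 0. With the female libraries fitted alone, 0 of all 9188 genes then tested passed, so that fit could not set these genes apart. Averaged over both sexes with equal weight, Setd1a fell and Smarca4 rose, against 9.5% of all genes (4.37% higher and 5.13% lower). The 95% interval of the fold change lay within 2-fold in either direction for 35 of the 38 genes in males, for 35 in females and for 37 in the average. For all genes tested that share was 79.6% in males and 67.0% in females. The median log2 fold change of the 38 genes was 0.03 in males and 0.06 in females, beside -0.01 and 0.01 over all genes tested. Without regard to sign the median was 0.21 in males and 0.11 in females, beside 0.18 and 0.23 over all genes. These counts moved with single libraries: without female KO replicate 33, Ino80, Kmt2a, Kmt2d, Smarca4 and Smarcd1 joined Setd1a in males, for a count of 6, and Ep400 passed in females. Of all genes tested 8.46% then passed in males, 6.09% in females and 14.2% in the average. In the average Ep400 and Kmt2a then passed and Smarca4 did not. That count ran from 0 to 3 as each library was left out in turn.

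**Figure D2:**
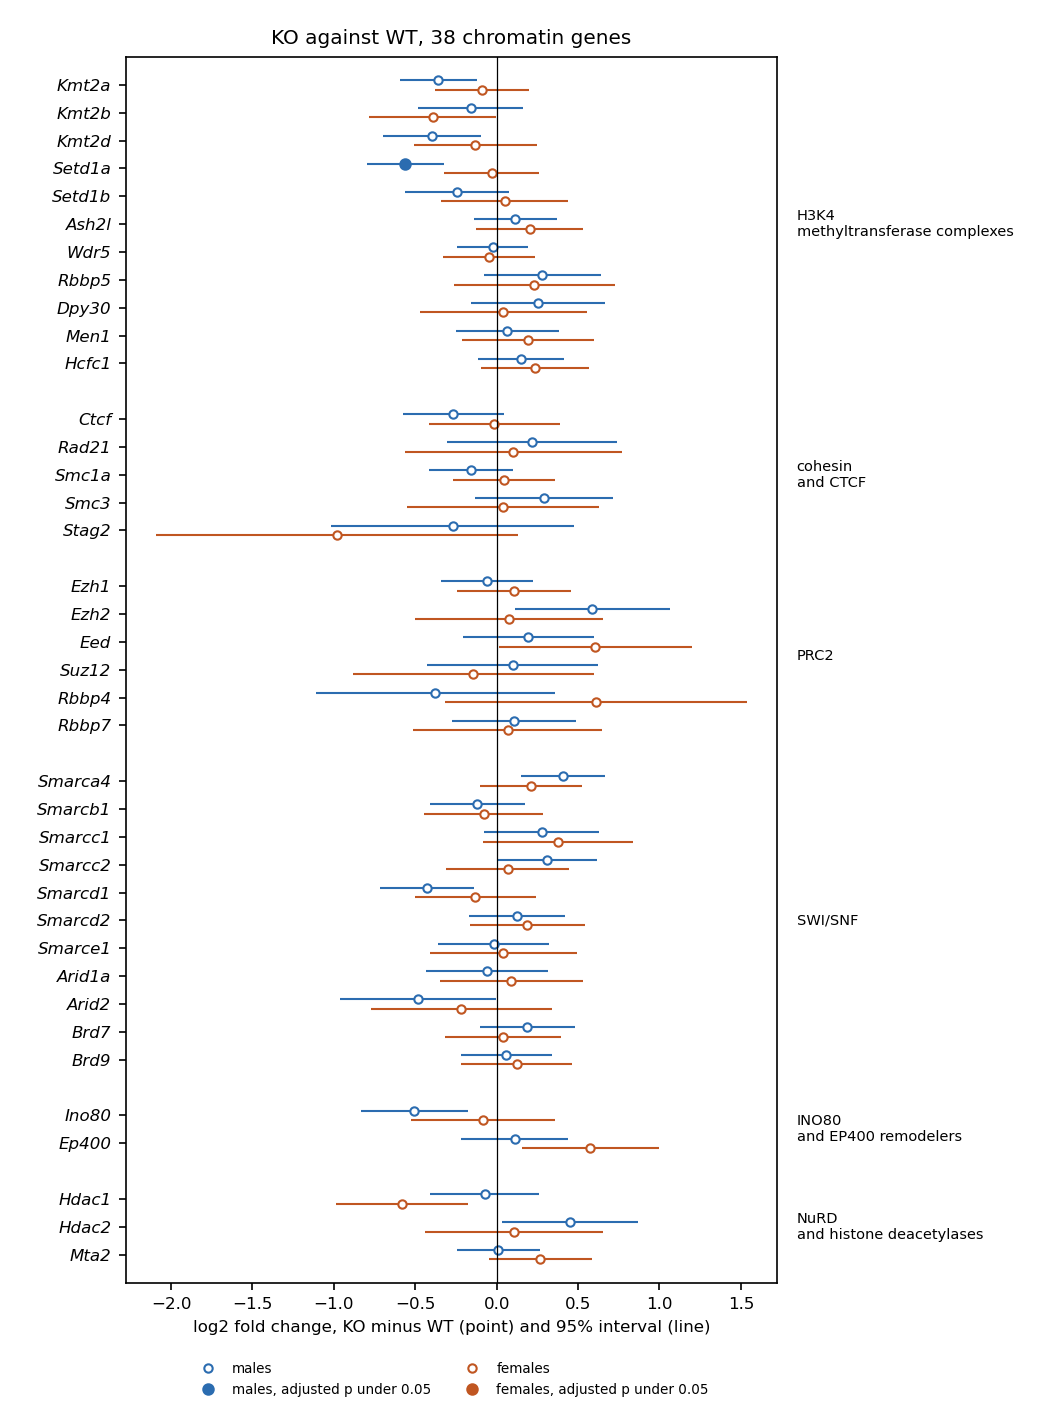
Log2 fold change of KO against WT for each of the 38 genes, in males (blue) and females (orange), with the 95% interval as a line and genes grouped by complex. The point filled in blue is Setd1a, at -0.56 in males, the 1 gene with an adjusted p under 0.05. No female point is filled, and the widest interval is that of Stag2 in females.

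Among the H3K4 methyltransferase genes, the catalytic subunit Setd1a (ENSMUSG00000042308, chr7:127776670-127800122 of GRCm38) was lower in male KO libraries. SETD1A is among the enzymes that place the bulk of promoter H3K4 trimethylation. Its level was 34.8, 38.3, 36.3, 36.8 and 32.3 CPM in male KO replicates 36, 6, 9, 17 and 40, and 51.5, 55.3, 48.6, 61.7 and 44.6 CPM in male WT replicates 13, 37, 10, 11 and 14. The 2 groups did not overlap, which held for 3 of the 38 genes and for 9.85% of all genes tested. In females it held for 0 of the 38 genes and for 5.32% of all genes. KO against WT gave a log2 fold change of -0.56 ± 0.11 (edgeR adjusted p = 0.00326), a level 1.48-fold lower. The 3' end of Setd1a overlaps 9430064I24Rik on the other strand, which held 8 UMIs in all beside 2324 for Setd1a. Within the 7 male libraries of the lowest range of reads per UMI it was also -0.56, with an edgeR adjusted p of 0.00985.

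Female libraries showed no such gap. Setd1a was 43.7, 56.9, 61.8 and 53.7 CPM in female KO replicates 33, 16, 1 and 7, and 53.7, 63.2, 49.5 and 60.4 CPM in female WT replicates 34, 39, 31 and 30. The groups overlapped, and the log2 fold change was -0.03, with a 95% interval from -0.32 to 0.26. The difference between the KO effects (females minus males) was 0.53 ± 0.18, with an edgeR adjusted p of 0.348, so a difference between the sexes was not shown. Averaged over the sexes the change was -0.30 ± 0.09 (adjusted p = 0.0409 in edgeR), a call that 13 of its 28 alternatives lost. It stood without female KO replicate 33 (-0.27, adjusted p = 0.039 in edgeR). With the range of reads per UMI as a covariate Setd1a was -0.19 ± 0.18 in females (adjusted p = 0.677 in edgeR). The average was then -0.37 (adjusted p = 0.0398 in edgeR). The difference between the KO effects was 0.37 ± 0.21 in that fit (adjusted p = 0.506 in edgeR).

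Male KO libraries also held more neural transcript than male WT. The 9 neuronal markers summed to 67.5 to 335 CPM in male KO and 14.2 to 38.2 CPM in male WT, and the 9 astrocyte markers to 272 to 594 CPM against 145 to 198 CPM. The 9 oligodendrocyte lineage markers summed to 290 to 888 CPM against 172 to 229 CPM. None of the neuronal and astrocyte markers was at 0 in all male KO libraries, while Pdgfra, which marks oligodendrocyte precursors, was. Without male KO replicates 6, 9 and 17, which held the most neural transcript, Setd1a was -0.64 in males with an edgeR adjusted p of 0.0536, from 2 KO libraries. On read counts without UMI correction it was -0.64 with an adjusted p of 0.0661 in edgeR. These were the only 2 of 30 alternatives in which the male call was lost.

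The other H3K4 enzymes gave values below 0 in males without passing. Kmt2a, the enzyme known from mixed-lineage leukaemia, was 63.9, 68.2, 71.7, 62.0 and 62.1 CPM in male KO and 77.4, 80.4, 97.1, 91.5 and 73.0 CPM in male WT. These groups did not overlap, by the gap between 71.7 and 73.0 CPM, and the log2 fold change was -0.36 ± 0.11 (adjusted p = 0.0672 in edgeR). In females Kmt2a was 111, 82.5, 87.6 and 81.4 CPM in KO and 114, 95.2, 75.3 and 97.6 CPM in WT, with overlap. Kmt2d, an enzyme of enhancer methylation, was 36.5 ± 3.51 CPM in male KO and 48.0 ± 5.36 CPM in male WT, a log2 fold change of -0.40 ± 0.14 (adjusted p = 0.12 in edgeR). Kmt2b gave -0.16 in males and -0.39 in females, and Setd1b, the paralogue of Setd1a, -0.24 and 0.05. Without female KO replicate 33, Kmt2a and Kmt2d did pass in males (edgeR adjusted p = 0.0326 and 0.0426), at log2 fold changes of -0.36 and -0.40. With the range of reads per UMI as a covariate Kmt2d passed in males (-0.43, adjusted p = 0.0385 in edgeR). It also passed in the average (-0.47, adjusted p = 0.0279 in edgeR) but not in females (-0.51, adjusted p = 0.249 in edgeR). Setd1b was then -0.29 in males and -0.36 in females, and passed in neither.

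The shared core of these enzymes, to which CHD8 has been found bound, gave no call. Wdr5 (chr2:27515157-27536535), the scaffold that reads the H3 tail, was 46.2, 40.1, 49.3, 48.2 and 49.97 CPM in male KO and 47.4, 54.6, 39.0, 47.2 and 49.4 CPM in male WT. Female libraries gave 38.6, 42.3, 40.7 and 46.7 CPM in KO and 42.5, 45.6, 42.7 and 45.7 CPM in WT. All 4 groups overlapped, and the averaged log2 fold change was -0.04 ± 0.09 with a 95% interval from -0.22 to 0.14 (adjusted p = 0.912 in edgeR).

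Ash2l (chr8:25815996-25847694), which stimulates the methyltransferase together with Dpy30, was 50.4, 45.6, 31.4, 44.5 and 45.2 CPM in male KO and 46.4, 41.1, 38.04, 35.04 and 41.8 CPM in male WT. Female KO libraries gave 51.5, 45.7, 47.9 and 39.9 CPM, and female WT libraries 35.8, 37.6, 38.2 and 44.1 CPM. In females 3 KO libraries lay above all 4 WT libraries and 1 lay among them. The averaged log2 fold change was 0.16 ± 0.10, with a 95% interval from -0.05 to 0.37 (adjusted p = 0.376 in edgeR).

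Rbbp5 (chr1:132477365-132505659), which links WDR5 to ASH2L, was 25.1, 25.5, 20.9, 23.3 and 25.5 CPM in male KO and 17.5, 20.9, 17.0, 24.9 and 18.8 CPM in male WT. It was 7.72, 23.8, 18.5 and 24.6 CPM in female KO and 29.1, 18.4, 16.3 and 13.9 CPM in female WT. The lowest value, 7.72 CPM, came from replicate 33, and the groups overlapped in both sexes. The averaged log2 fold change was 0.26 ± 0.15, with a 95% interval from -0.05 to 0.56 (adjusted p = 0.315 in edgeR). Without the 2 shallowest female libraries it was 0.39 and passed (adjusted p = 0.0394 in edgeR), the 1 call among the 28 alternatives for this contrast. With the range of reads per UMI as a covariate the average of Rbbp5 was 0.11 ± 0.19, that of Wdr5 -0.06 and that of Ash2l 0.15.

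Dpy30, the other core subunit, was 64.8 ± 15.9 CPM in male KO and 54.8 ± 9.68 CPM in male WT (log2 fold change 0.25 ± 0.20). Men1, the menin tumour suppressor that anchors KMT2A and KMT2B to chromatin, gave 0.07 in males and 0.19 in females. Hcfc1, a host cell factor of the SETD1 complexes coded on the X chromosome, gave 0.15 and 0.24. None of these 3 genes passed in any contrast. Men1 in females was 0.02 without replicate 33, which held 95.2 CPM.

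**Figure D3:**
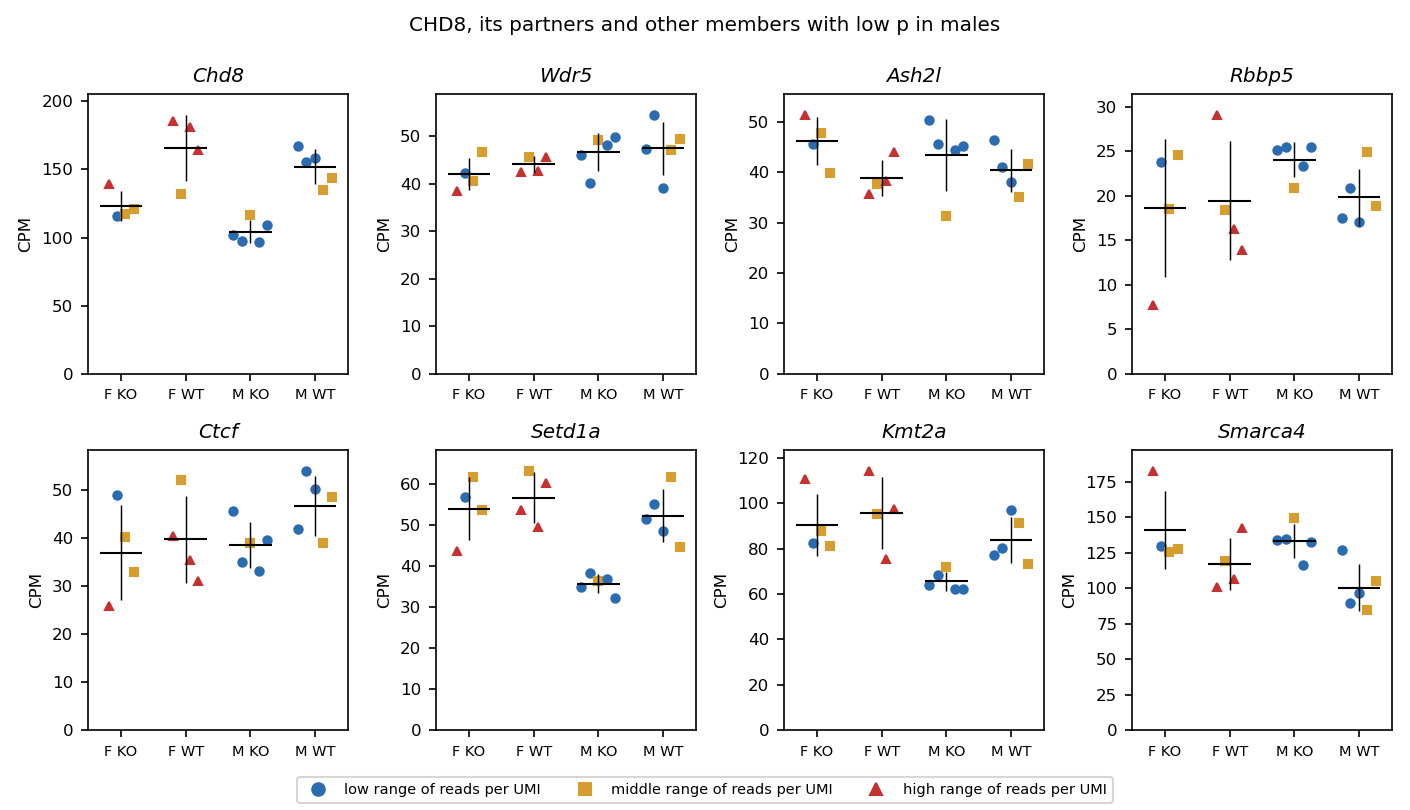
CPM of Chd8, its 4 partners Wdr5, Ash2l, Rbbp5 and Ctcf, and Setd1a, Kmt2a and Smarca4 in each library, by group (F female, M male). Points are libraries, coloured and shaped by their range of reads per UMI, with the group mean as a horizontal line and 1 SD as a vertical line. Setd1a in the 5 male KO libraries sits between 32.3 and 38.3 CPM, below the 5 male WT libraries, while each partner overlaps between KO and WT.

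Ctcf (chr8:105636568-105682922), the zinc finger protein that halts cohesin at loop anchors and insulators, was 45.6, 35.003, 38.8, 33.2 and 39.6 CPM in male KO and 41.7, 53.8, 50.1, 38.8 and 48.5 CPM in male WT. In females it was 25.7, 48.8, 40.2 and 32.9 CPM in KO and 40.3, 52.0, 35.4 and 31.0 CPM in WT. Both comparisons overlapped. KO gave a log2 fold change of -0.27 ± 0.15 in males, -0.02 ± 0.19 in females and -0.14 ± 0.12 in the average, with a 95% interval from -0.40 to 0.11 (adjusted p = 0.544 for the average in edgeR). With the range of reads per UMI as a covariate Ctcf was -0.31 in males and -0.43 in females. The average was then -0.37 ± 0.13 (adjusted p = 0.096 in edgeR).

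No cohesin gene passed for KO in either sex. Smc1a and Smc3, the arms of the ring, gave -0.16 and 0.29 in males and 0.04 and 0.04 in females. Rad21 gave 0.22 in males and 0.10 in females, with female libraries spread from 5.15 CPM in KO replicate 33 to 59.2 CPM in WT replicate 39. Without KO replicate 33 the female value was 0.26, and with the range of reads per UMI as a covariate it was -0.71. Stag2, the ring's X-linked adaptor subunit, was 6.95 ± 5.44 CPM in female KO and 12.4 ± 4.96 CPM in female WT. Its log2 fold change in females was -0.98 with a 95% interval from -2.10 to 0.13, the widest of the 38, and its lowest count was 4 UMIs, in female KO replicate 7. Female KO libraries spread from 1.23 CPM in replicate 7 to 12.9 CPM in replicate 33. With that spread a 2-fold lower level of Stag2 could not be told from an unchanged one.

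Of the PRC2 genes, the methyltransferase Ezh2 was 12.7, 9.48, 8.96, 7.06 and 9.14 CPM in male KO and 7.06, 6.73, 6.01, 5.79 and 6.06 CPM in male WT. In all, 4 of the male KO libraries lay above all male WT libraries and replicate 17 reached the same 7.06 CPM as the highest of them. At 0.59 ± 0.23 the log2 fold change did not pass (adjusted p = 0.156 in edgeR). EZH2 is the PRC2 enzyme of dividing cells. Of the 21 proliferation genes tested, 5 passed as higher in male KO and 0 as lower, against 3.37% and 2.87% of all genes, namely Mcm2, Mcm5, Mcm6, Cenpa and Rrm1, at 0.59 to 0.96. In females 3 passed as higher (Mcm2, Mcm4 and Mcm6) and 0 as lower, while Ezh2 was 0.08 there. Their part in the level of Ezh2 was not tested. Ezh1, the paralogue of resting cells, gave -0.06 in males and 0.10 in females. Suz12, the scaffold, gave 0.10 and -0.14, and the histone chaperone Rbbp7 0.11 and 0.07.

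Eed, which reads the H3K27 mark, gave 0.19 ± 0.19 in males and 0.61 ± 0.29 in females (adjusted p = 0.304 in edgeR). Rbbp4, a histone chaperone shared with NuRD, was the least even gene between female libraries, with 25.7, 190, 143 and 42.1 CPM in KO and 56.0, 147, 57.9 and 20.9 CPM in WT. The female groups overlapped over nearly their whole range, and the log2 fold change was 0.61 ± 0.45 (adjusted p = 0.565 in edgeR). It passed in females where no filter on low counts was used, as did the difference between its KO effects, and in none of the other alternatives. With the range of reads per UMI as a covariate the female value of Rbbp4 was -0.43 and that of Eed 0.11.

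SWI/SNF gave the 1 member that rose, Smarca4 (chr9:21616169-21704230), which codes for the BRG1 ATPase motor of the complex. It was 134, 135, 150, 116 and 133 CPM in male KO and 127, 89.3, 96.6, 84.8 and 105 CPM in male WT. In females it was 183, 130, 126 and 127 CPM in KO and 101, 119, 107 and 142 CPM in WT. The groups overlapped in each sex by 1 WT library, male WT replicate 13 and female WT replicate 30. The averaged log2 fold change was 0.31 ± 0.10 (adjusted p = 0.0497 in edgeR), just inside the threshold. Without female KO replicate 33, the library at 183 CPM, it was 0.26 with an adjusted p of 0.0534 in edgeR, and 18 of 28 alternatives lost the call. In males alone it was 0.41 ± 0.13 (adjusted p = 0.0555, and 0.0219 without female KO replicate 33, both in edgeR).

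Smarcd1, an adaptor subunit, was 37.0 ± 1.63 CPM in male KO and 50.2 ± 9.44 CPM in male WT. Its log2 fold change of -0.43 ± 0.14 did not pass (adjusted p = 0.0747 in edgeR), but did without female KO replicate 33 (adjusted p = 0.0472). Arid2, which defines the PBAF form, gave -0.48 in males and -0.22 in females. The scaffold genes Smarcc1 and Smarcc2 gave 0.28 and 0.31 in males and 0.38 and 0.07 in females. The core subunit Smarcb1, the accessory subunits Smarcd2 and Smarce1, the BAF subunit Arid1a and the bromodomain genes Brd7 and Brd9 lay between -0.12 and 0.19 in males and between -0.08 and 0.19 in females. Without replicate 33 the female values of Smarcb1, Brd7 and Brd9 changed sign, to 0.05, -0.06 and -0.04, and Arid1a moved from 0.09 to 0.28. With the range of reads per UMI as a covariate these female values were -0.48, 0.39, 0.46 and, for Arid1a, -0.42. SWI/SNF values thus went both ways in males, with 6 of 11 above 0 and 5 below, and 4 of the 11 (36.4%) at an unadjusted p under 0.05, against 18.1% of all genes.

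Ino80, the ATPase of the INO80 remodeler, was the third gene whose male groups did not overlap. It was 21.99 ± 1.87 CPM in male KO, with a highest library of 24.98 CPM, and 31.6 ± 4.53 CPM in male WT, with a lowest of 26.5 CPM. Its log2 fold change was -0.51 ± 0.16 (adjusted p = 0.0609, and 0.0487 without female KO replicate 33, both in edgeR). Ep400, the motor of the TIP60 complex, gave 0.11 in males and 0.58 ± 0.20 in females, where 3 KO libraries (51.9, 55.1 and 58.3 CPM) lay above all WT libraries (29.1 to 46.4 CPM) and replicate 33 lay below them at 28.3 CPM. It did not pass (adjusted p = 0.141 in edgeR), and did without replicate 33 (0.67, adjusted p = 0.0363 in edgeR). With the range of reads per UMI as a covariate Ep400 was 0.18 ± 0.22 in females (adjusted p = 0.785 in edgeR).

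Hdac1, a deacetylase that NuRD shares with other corepressors, gave the lowest female p of the 38 genes. It was 30.9, 57.8, 79.8 and 87.8 CPM in female KO and 103, 82.4, 128 and 97.6 CPM in female WT, and overlapped by 1 KO library. The log2 fold change was -0.58 ± 0.19 (adjusted p = 0.122, and 0.108 without replicate 33, both in edgeR). Its paralogue Hdac2 gave 0.45 ± 0.20 in males and 0.11 in females. Mta2, a NuRD scaffold, gave 0.01 and 0.27.

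For the difference between the KO effects of the sexes, none of the 38 genes passed, against 0.237% of all genes tested (0.0457% with the higher and 0.192% with the lower value in females). Setd1a was the 1 gene at an unadjusted p under 0.05, and DESeq2 also called 0.

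A further 87 genes of the same complexes were listed, of which 76 were tested. In males 1 rose and 3 fell, which is 5.26% of them, near the 6.24% of all genes tested. The riser was Znhit1, a subunit of the SRCAP complex (0.68, adjusted p = 0.0382), and those that fell were the INO80 subunit Ino80e (-0.50, adjusted p = 0.00116), the SWI/SNF subunit Bcl7b (-0.52, adjusted p = 0.00543) and the NuRD-associated Cdk2ap1 (-0.62, adjusted p = 0.0115), all in edgeR. In females Ino80e fell (-0.43, adjusted p = 0.0352 in edgeR) and no other passed (1.32%, against 2.68% of all genes). The same 4 genes passed in the average (5.26%, against 9.5% of all genes), where Ino80e was -0.47 (adjusted p = 0.000217 in edgeR). Of the 7 other H3K4 methyltransferase genes, 8 other cohesin genes and 6 other PRC2 genes tested, none passed for KO in males, in females or in the average. The median log2 fold change of the 76 was -0.0042 in males and 0.01 in females.

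Between the sexes, several of these genes differed. In WT libraries 9 of the 38 genes differed between males and females, against 17.3% of all genes tested (6.94% higher and 10.3% lower in males): Setd1b, Eed, Rbbp4 and Rbbp7 were higher in males, and Kmt2b, Ezh2, Arid2, Brd7 and Hdac1 lower. In KO libraries 5 differed, against 7.1% of all genes (2.83% higher and 4.27% lower): Rbbp7 was higher in males, and Arid2, Setd1a, Kmt2a and Smc1a lower. Rbbp7 and Arid2 passed in both genotypes. As each library was left out in turn the counts ran from 4 (without female WT replicate 30) to 10 in WT and from 3 to 11 (without female KO replicate 16) in KO. Of the 4 female WT libraries, 3 lay in the highest range of reads per UMI and no male library did. With that range as a covariate none of the 38 genes passed in WT, against 271 genes over the whole table, and Rbbp7, Arid2 and Setd1a passed in KO. Under the same covariate 5 genes passed for KO in males, 0 in females and 3 in the average, against 7.00%, 0.913% and 5.68% of all genes. Without female KO replicate 33, Mta2 joined the 9 in WT, and Kmt2a left the 5 in KO. Beyond the 271 genes in WT, the number of all genes that passed in these other fits between the sexes is not given here. The moves in these counts are therefore not read as particular to the 38 genes. Markers of blood myeloid cells also differed between these groups: the 9 monocyte markers summed to 220 to 746 CPM in female WT and 52.7 to 88.2 CPM in male WT, and the 10 neutrophil markers to 2227 to 16589 CPM and 312 to 1133 CPM. In KO the monocyte markers summed to 125 to 229 CPM in females and 48.8 to 108 CPM in males, and the neutrophil markers to 957 to 5926 CPM and 303 to 622 CPM. Astrocyte markers lay the other way in KO, at 87.5 to 259 CPM in females and 272 to 594 CPM in males. So did oligodendrocyte lineage markers, at 194 to 273 CPM in females and 290 to 888 CPM in males. Neuronal markers overlapped, at 26.9 to 86.0 CPM in female KO and 67.5 to 335 CPM in male KO. The part of all these markers in the differences between the sexes was not tested.

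**Figure D4:**
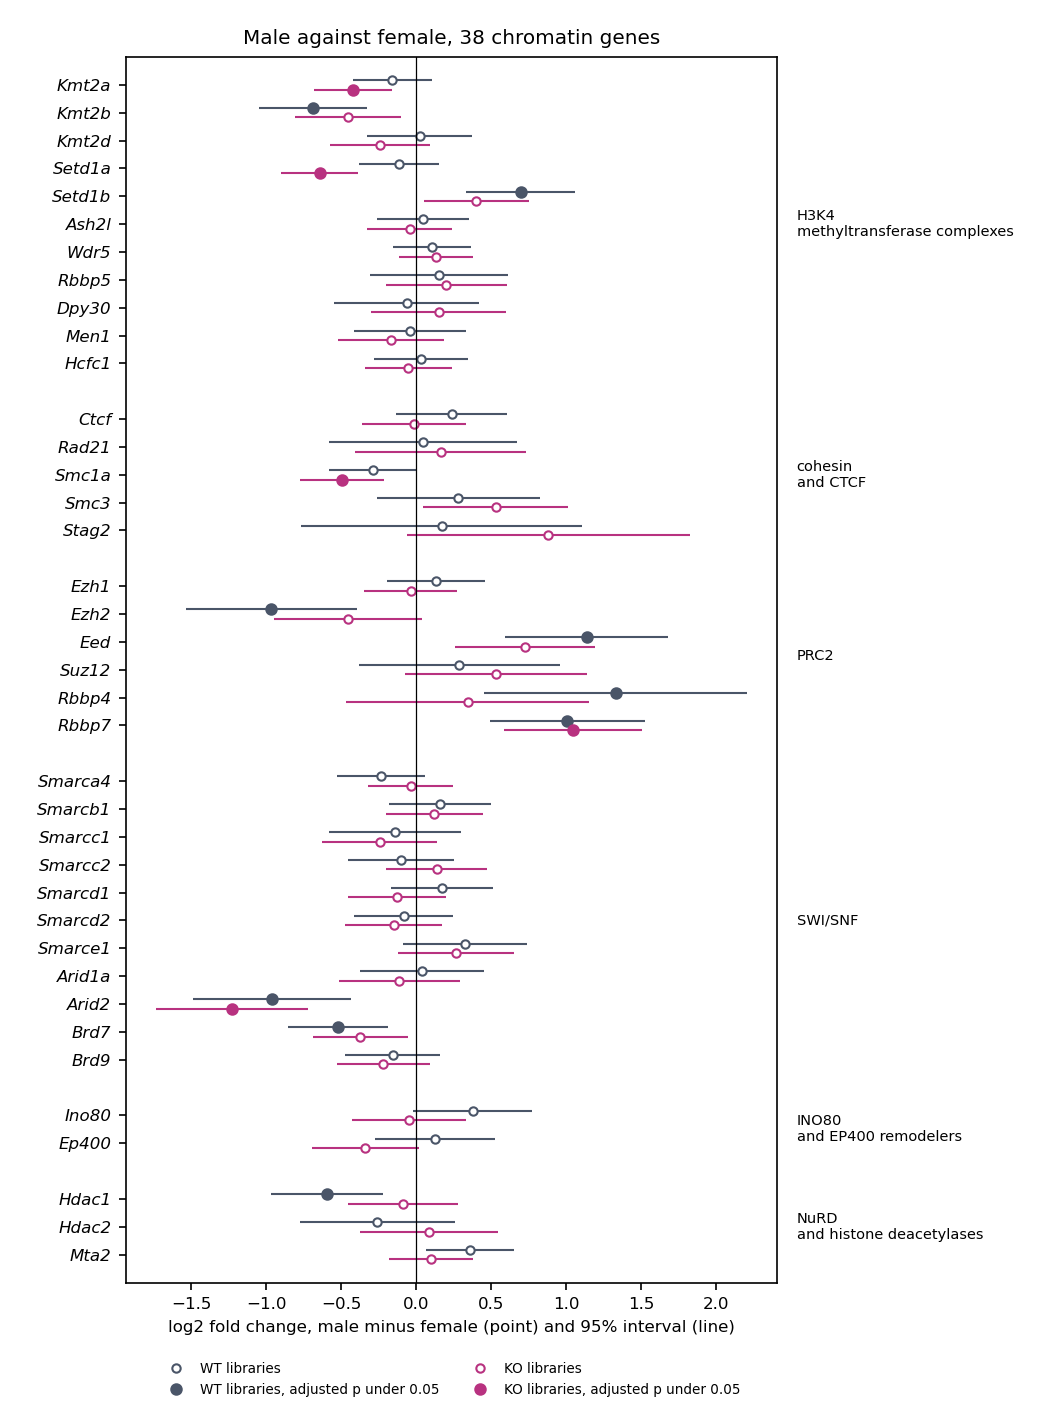
Log2 fold change of males against females for each of the 38 genes, in WT (grey) and KO (magenta) libraries, with the 95% interval as a line. Filled points are the 9 genes with an adjusted p under 0.05 in WT and the 5 in KO. Rbbp7 and Arid2 are filled in both, at 1.01 and 1.05 and at -0.96 and -1.23.

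PRC2 genes held 4 of the 9 differences in WT. Rbbp7 (ENSMUSG00000031353, chrX:162760402-162779092) was 19.8, 34.7, 26.5, 39.4 and 29.3 CPM in male WT and 13.4, 18.4, 12.9 and 14.7 CPM in female WT. In KO it was 38.2, 23.3, 38.3, 27.6 and 34.3 CPM in males and 7.72, 20.2, 12.9 and 15.4 CPM in females. No male library overlapped the females of its genotype, which held for 9 of the 38 genes in WT and 5 in KO, against 18.2% and 9.22% of all genes. Males differed from females by a log2 fold change of 1.01 ± 0.25 in WT and 1.05 ± 0.22 in KO (edgeR adjusted p = 0.00784 and 0.00743). With the range as a covariate it was 0.66 in WT and 1.06 in KO. In KO it passed in all 28 alternatives, at 0.91 to 1.504, and without replicate 33 it was 0.98 (adjusted p = 0.0132 in edgeR). The last exon of Rbbp7 lies against that of Txlng on the other strand. Txlng held 104 UMIs in all, beside 1409 for Rbbp7.

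Eed was 33.3, 46.8, 38.04, 56.2 and 44.6 CPM in male WT and 26.9, 28.01, 15.7 and 13.9 CPM in female WT, with no overlap. The log2 fold change was 1.14 ± 0.26 (adjusted p = 0.00505 in edgeR), and 0.56 with the range as a covariate (adjusted p = 0.477). In KO it was 55.7, 52.5, 39.3, 45.4 and 56.4 CPM in males and 18.01, 44.3, 31.4 and 19.7 CPM in females, and did not pass (0.72, adjusted p = 0.0533 in edgeR). Rbbp4 was 173, 162, 204, 177 and 183 CPM in male WT, above all female WT libraries given earlier, at 1.33 ± 0.42 (adjusted p = 0.0342 in edgeR). With the range as a covariate that was 0.09 (adjusted p = 0.97 in edgeR). In male KO it was 167, 86.8, 150, 137 and 149 CPM, within the range of female KO. Female KO replicates 33 and 7 and female WT replicate 30 were low for Rbbp4 and for Eed alike. Without female WT replicate 30 the call for Rbbp4 was lost, and 4 of the 38 genes passed in WT.

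Ezh2 went the other way from its partners. It was 11.2, 13.6, 7.31 and 17.8 CPM in female WT, above the male WT libraries given earlier, a log2 fold change for males of -0.97 ± 0.27 (adjusted p = 0.0186 in edgeR), and -1.23 with the range as a covariate (adjusted p = 0.123). In female KO it was 7.72, 11.8, 17.0 and 12.9 CPM, and the KO difference of -0.46 did not pass (adjusted p = 0.245 in edgeR). Of the 21 proliferation genes tested, 8 were lower and 1 higher in male WT than in female WT, against 10.3% and 6.94% of all genes, among them Mki67 (-3.28 ± 0.66, adjusted p = 0.00177 in edgeR). In KO 2 of the 21 were lower and 1 higher in males, against 4.27% and 2.83% of all genes. The part of these genes in the level of Ezh2 was not tested.

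Arid2 (chr15:96287518-96404992) stood furthest below the females in KO among the 38 genes. It was 6.96, 6.20, 6.47, 4.91 and 6.91 CPM in male KO and 25.7, 14.3, 11.8 and 14.7 CPM in female KO, with no overlap. The log2 fold change was -1.23 ± 0.25 (adjusted p = 0.00516, and 0.00969 without replicate 33, both in edgeR). In WT it was 8.41, 8.15, 6.01, 13.6 and 7.65 CPM in males and 17.9, 16.8, 21.4 and 13.2 CPM in females. There male WT replicate 11 overlapped the lowest female library, and the log2 fold change was -0.96 ± 0.25 (adjusted p = 0.0121 in edgeR), and -0.56 with the range as a covariate. Brd7, the other PBAF subunit of the list, was 41.7, 45.3, 39.5, 43.4 and 39.5 CPM in male WT and 78.4, 45.6, 66.3 and 57.3 CPM in female WT. The gap between the groups was that from 45.3 to 45.6 CPM, and the log2 fold change was -0.52 ± 0.16 (adjusted p = 0.0282 in edgeR), and -0.06 with the range as a covariate. In KO Brd7 was 56.7, 43.0, 43.8, 51.3 and 43.6 CPM in males and 90.1, 50.2, 65.4 and 58.0 CPM in females, and did not pass. The other 9 SWI/SNF genes passed in neither genotype.

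Among the H3K4 enzymes, Setd1b was 205, 194, 194, 159 and 164 CPM in male WT and 98.5, 128, 96.7 and 126 CPM in female WT, with no overlap (0.69 ± 0.18, adjusted p = 0.00926 in edgeR). With the range as a covariate it was 0.15. Setd1b was 151, 167, 166, 152 and 140 CPM in male KO and 56.6, 165, 115 and 106 CPM in female KO, with overlap. Kmt2b, the KMT2 paralogue of Kmt2a, was 47.4, 32.9, 46.1, 45.5 and 37.0 CPM in male WT and 89.6, 58.4, 54.5 and 75.9 CPM in female WT without overlap (-0.69 ± 0.17, adjusted p = 0.00951 in edgeR, and -0.57 with the range as a covariate). It was 33.7, 37.2, 37.8, 45.4 and 33.5 CPM in male KO and 43.7, 41.5, 68.5 and 48.8 CPM in female KO, with overlap.

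In KO libraries Setd1a was lower in males than in females without overlap (-0.64 ± 0.12, adjusted p = 0.0041 in edgeR), while in WT it was -0.12 with a 95% interval from -0.38 to 0.15. This contrast shares its male KO libraries with the KO comparison above, so it is no second measurement of their low level. It was lost on read counts without UMI correction (adjusted p = 0.0619 in edgeR) and without male KO replicates 6, 9 and 17 (adjusted p = 0.0546). Kmt2a gave -0.42 ± 0.13 in KO (adjusted p = 0.0433 in edgeR), and did not pass without replicate 33 (-0.36, adjusted p = 0.0781).

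Smc1a, coded on the X chromosome (chrX:152016428-152062694), was 53.2, 42.3, 51.8, 46.7 and 50.4 CPM in male KO and 54.0, 65.9, 73.6 and 74.9 CPM in female KO. The groups did not overlap, with 53.2 CPM beside 54.0 CPM, and the log2 fold change was -0.50 ± 0.13 (adjusted p = 0.03 in edgeR). In WT it was 52.5, 60.2, 46.6, 61.7 and 51.7 CPM in males and 60.5, 52.0, 68.0 and 84.4 CPM in females (-0.29 ± 0.14, adjusted p = 0.165 in edgeR). Of the other X-linked genes, Hcfc1 and Stag2 did not pass in either genotype, while Rbbp7 passed in both as higher in males. Hdac1 was 61.5, 64.1, 64.6, 77.9 and 72.4 CPM in male WT, below all female WT libraries (-0.60 ± 0.18, adjusted p = 0.0258 in edgeR, and -0.50 with the range as a covariate). In male KO it was 59.1, 55.1, 81.2, 64.2 and 66.0 CPM, and the KO difference of -0.09 did not pass.

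The partners Wdr5, Ash2l, Rbbp5 and Ctcf passed in neither sex contrast. Their log2 fold changes for males were 0.11, 0.04, 0.15 and 0.24 in WT and 0.13, -0.05, 0.20 and -0.01 in KO.

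**Figure D5:**
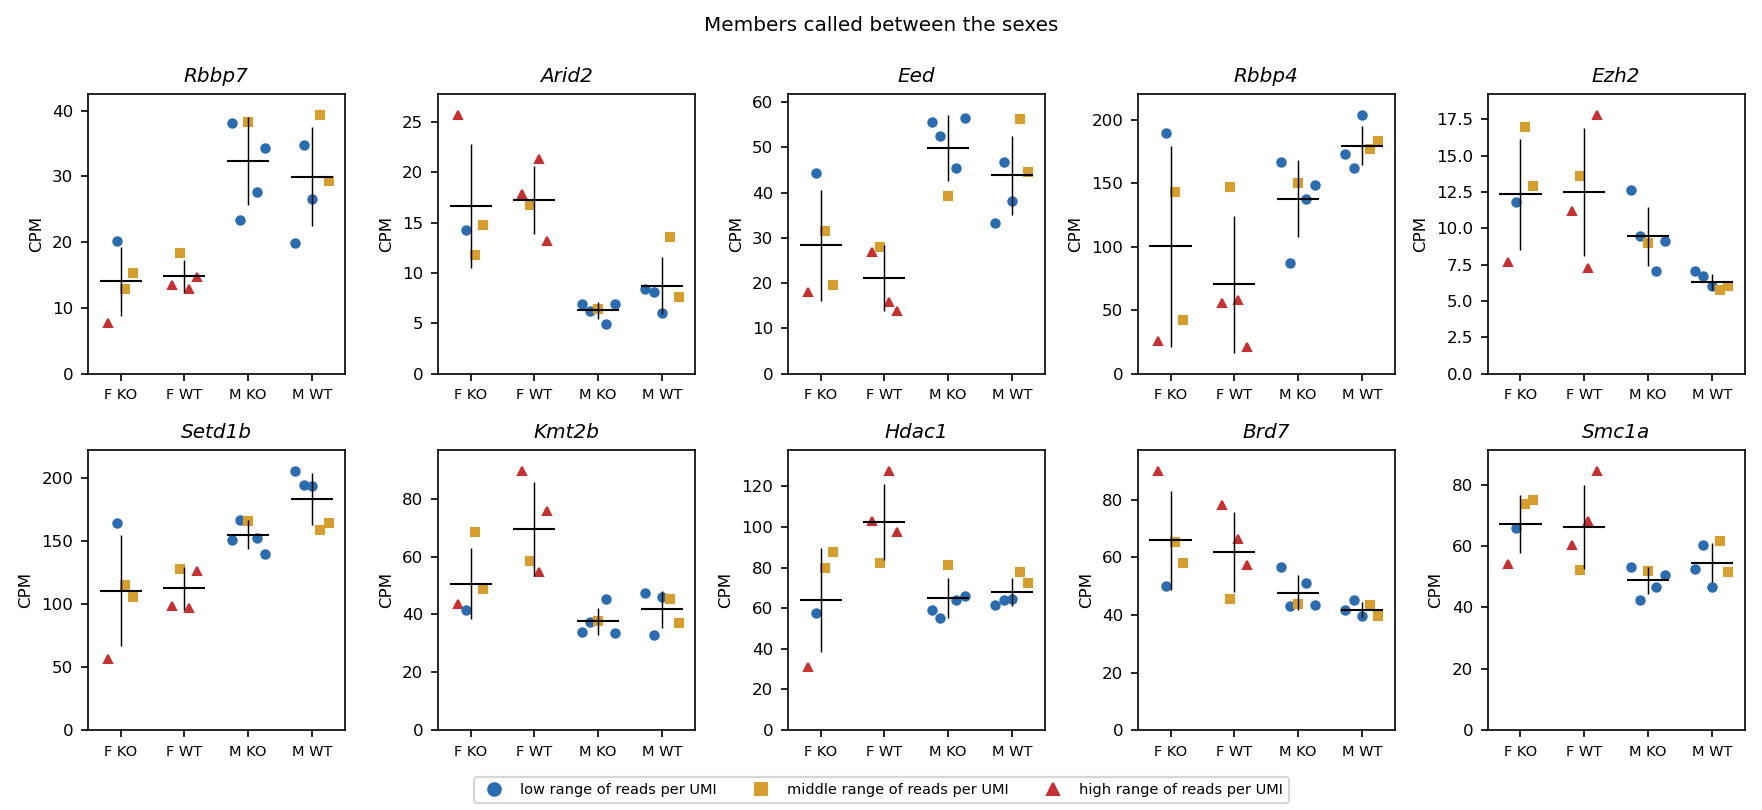
CPM in each library for 10 genes that passed between the sexes in WT or KO, by group (F female, M male), with the group mean as a horizontal line and 1 SD as a vertical line. Colour and shape give the range of reads per UMI. The high range (red triangles) occurs in females alone, and Rbbp7 is higher in all 10 male libraries than in the females of the same genotype.

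Of the 76 other genes of these complexes, 6 were higher and 4 lower in male WT than in female WT, or 13.2% against 17.3% of all genes. Those higher were the H3K4 methyltransferase Kmt2c, the SWI/SNF genes Pbrm1 and Ss18, the TIP60 genes Epc1 and Mrgbp and the corepressor Rcor1. Those lower were Wdr82, the targeting subunit of the SETD1 complexes, the cohesin adaptor Stag1, Ino80d and Znhit1. In KO 3 were higher (Ss18, Ino80c and Uchl5) and 4 lower (Wdr82, Stag1, the PRC2 accessory gene Mtf2 and Brd8), or 9.21% against 7.1% of all genes. Ss18, Wdr82 and Stag1 passed in both genotypes, at 0.98 and 0.82, at -0.75 and -0.79, and at -0.76 and -0.51. Of the 9 demethylases of H3K4 and H3K27 tested, 0 passed for KO in males, in females or in the average. Kdm5d, a Y-linked gene, was higher in males in both genotypes. Kdm5a and the X-linked Kdm5c were lower in male KO than in female KO, at -0.72 and -0.54 (adjusted p = 0.0452 and 0.0278 in edgeR).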

How the data were processed

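RNA of purified brain microglia was sequenced in 18 libraries by bulk MARS-seq, with 30 ng of RNA barcoded per sample and pooled, per the labels' protocols. The authors deposited whole-number counts per gene, as reads and as UMI-corrected counts, without scaling. Cutadapt, STAR, HTSeq and mm10 are named, without versions, in the submitters' processing notes. The annotation release, read filters, strand setting and way of correcting for UMIs were not given in the sources used here. Of 34 library columns per table, 16 matched no sample and were left out. Symbols and positions came from GENCODE M21 on GRCm38, the assembly of mm10, for 52133 of 55414 identifiers. Counting at 3' ends can merge overlapping genes: within 500 bases of the 3' end, Setd1a, Rbbp4 and Rbbp7 overlap a gene on the other strand (9430064I24Rik, Sync and Txlng).

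UMI-corrected counts were filtered with filterByExpr by group, scaled by TMM and fitted in edgeR 4.0.16 (R 4.3.3) with 1 mean per group over all 18 libraries, by the quasi-likelihood test, two-sided. P-values were adjusted by Benjamini-Hochberg over 10948 genes, and genes were called under 0.05 with no minimum fold. The common biological coefficient of variation was 17.8%. Each SE is the absolute log2 fold change over the root of its F statistic, and intervals are at 95%. The test keeps a p no smaller than Poisson counting allows, so an interval and its p can differ slightly. The fit was tested on simulated data. Depth ran from 435838 to 9149144 UMIs per library, which limits genes of few UMIs in the shallow female libraries.

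Alternatives were read counts, RLE and upper-quartile scaling, no filter, DESeq2 1.42.0, limma 3.58.1 voom with quality weights, 1 surrogate variable (sva 3.50.0), the range of reads per UMI as a covariate (bounds 2.4 and 4.3), 1 sex alone, and leaving out libraries. The 38 genes, the other lists, the tests and the bounds were chosen with earlier results of these data known. Chd8 and all 38 genes are named. Values in every library are given for Wdr5, Ash2l, Rbbp5, Ctcf and each gene called in a KO or sex contrast, and of other lists the called genes, at most 6 per list by lowest p. Single values of Rad21 and Ep400, and the proliferation genes named, were chosen after they were seen.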

Additional observations from a re-analysis of the deposited data

Results flagged for a closer look

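For each of the 38 genes and Chd8 in each of the 4 groups, the highest and lowest library was compared with the rest of its group by Dixon's criterion, which chance alone meets in about 1 in 20 groups. Of 156 such comparisons 9 met it. Female KO replicate 33, the shallowest library, accounted for 5: Men1 at 95.2 CPM against 45.7 to 50.5 CPM in the other female KO libraries, Smarca4 at 182.7 CPM against 125.7 to 129.6 CPM, Smarcb1 at 28.3 CPM against 71.8 to 74.9 CPM, Smarcd2 at 239 CPM against 136 to 143 CPM, and Brd9 at 190 CPM against 103 to 115 CPM. Female WT replicate 34 held Suz12 at 31.3 CPM, against 12.4 to 15.2 CPM in the other female WT libraries. Female WT replicate 39 held Ep400 at 46.4 CPM, against 29.1 to 31.0 CPM. In male WT, replicate 14 held Hcfc1 at 41.4 CPM against 53.9 to 58.1 CPM, and replicate 37 held Brd9 at 123 CPM against 91.2 to 97.5 CPM.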

How the results depend on the processing

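No paired analysis was possible because the labels give every library a different replicate number. For the genes called in a contrast, Chd8 and the 4 partners, 567 values under an alternative stayed on the same side of the threshold, 105 lost a call, 5 gained one, and 0 called values turned direction. Wdr5, which was not called, changed sign in 2. For KO in males the count of 1 became 0 on read counts without UMI correction and without male KO replicates 6, 9 and 17, 2 with upper-quartile scaling, 4 with DESeq2, 7 with limma voom and quality weights, and 5 with 1 surrogate variable or with the range of reads per UMI as a covariate. It became 6 without the 2 shallowest female libraries, with the male libraries alone, and in the 7 male libraries of the lowest range alone, an alternative chosen after seeing the data. Of all genes, 1.83% passed in males on read counts, 1.68% without male KO replicates 6, 9 and 17, and 6.28% with upper-quartile scaling. The share was 7.56% with DESeq2, 14.8% with voom, 8.36% with 1 surrogate variable and 7.00% with the covariate. With the male libraries alone it was 11.3%, and in the 7 male libraries 9.12%. With single libraries left out the count ran from 1 to 6. It was 2 without female WT replicate 34, 39, 31 or 30 or male WT replicate 13 or 11, and 6 without female KO replicate 33. Of all genes 6.34% to 6.80% passed in males without one of those female WT libraries, and 8.46% without female KO replicate 33. The share of all genes in males without the 2 shallowest female libraries is not given here. In females the count of 0 became 1 with no filter on low counts (Rbbp4), and ran from 0 to 1 with single libraries left out (Ep400, without KO replicate 33). Of all genes 2.19% passed in females with no filter and 6.09% without KO replicate 33. In the average the count of 2 became 0 on read counts and without male KO replicates 6, 9 and 17, and 4 with 1 surrogate variable or without the 2 shallowest female libraries. For all genes the shares in the average were 3.96%, 6.02%, 12.8% and 13.3%, in that order. With single libraries left out the count in the average ran from 0 to 3. It was 0 without female KO replicate 16 or 7, male KO replicate 36 or 40 or male WT replicate 37 or 11, 3 without female KO replicate 33, and 1 without any of 10 others. For the difference between the KO effects the count of 0 became 1 with no filter (Rbbp4), and was 0 without each single library. Between the sexes in WT the count of 9 became 4 on read counts and 0 with the range as a covariate, and ran from 4 (without female WT replicate 30) to 10 with single libraries left out. In KO the count of 5 became 1 on read counts, 9 with voom, 3 with the range as a covariate and 1 without male KO replicates 6, 9 and 17. With single libraries left out it ran from 3 (without female KO replicate 1 or 7 or male KO replicate 6, 17 or 40) to 11 (without female KO replicate 16). The cause of these shifts was not tested. No alternative scaling moved the median of all genes by 0.1 or more on the log2 scale. Depth limits Ezh2, Stag2 and Arid2 most, with median counts of 20, 20 and 23 UMIs per library.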
